A study of Mus musculus with 3 samples.

Results

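The immediate early genes described here are 10 of 47593 gene rows. Fos, Fosb, Fosl2, Jun, Junb, Egr1, Egr3, Arc, Npas4 and Ier2 were taken by symbol from every deposited library and followed in cultured wild-type (WT) mouse neurons of the hippocampus. They were chosen by name, not by a threshold on a value. The 3 libraries form 1 group. Its primary neurons grew at 37 °C under 5% CO2, in Neurobasal to which 1% GlutaMAX and 10% B27 had been added, and then received new medium holding B27 and penicillin-streptomycin. The series' text gives 24 h for its treatments and also names neurons given apoE particles, which were not analysed here, so that no treatment is compared. The labels do not say whether the replicates came from separate cultures or animals, so p-values speak only for these libraries. The spread between them may be technical.

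Immediate early genes are transcribed within minutes of a stimulus without a need for new protein, and in neurons they follow synaptic activity, calcium entry and growth factor signals. Many of their transcripts are short-lived. Most of the 10 encode transcription factors. Fos and Jun proteins pair into the dimer AP-1, Egr proteins bind GC-rich sites through zinc fingers, and Npas4 is induced in neurons by calcium entry and shapes inhibitory synapses. Arc is different, an effector at the synapse that drives internalisation of AMPA receptors.

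All 10 genes were detected at 1 CPM (reads of a gene scaled to a common library total) or more in each library, a rule met by 29.4% of all gene rows and by 59.0% of protein-coding genes. Deposited values are log2 levels in which differences between libraries are strongly shrunken, so whole reads were recovered from them, and CPM with an SD below refers to recovered reads over the 3 libraries (n = 3). Total reads were 18780572, 18683966 and 18885652 in replicates 1, 2 and 3. The 10 genes together had 5424, 5223 and 5466 reads, which is 0.0289%, 0.0280% and 0.0289% of each library. Fosl2 and Jun held 68.4% ± 0.734 of these reads (SD, n = 3), so that a sum over the 10 genes is mostly a sum over 2 of them. Per kilobase of annotated exon the levels reached from 0.506 CPM for Fosb to 25.7 CPM for Jun. Their median was 6.18 CPM per kilobase of exon, against 6.11 for the 13986 detected gene rows. This likeness depended on the length used, since per kilobase of 1 coding transcript the medians were 6.80 and 10.2 CPM.

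**Figure D1:**
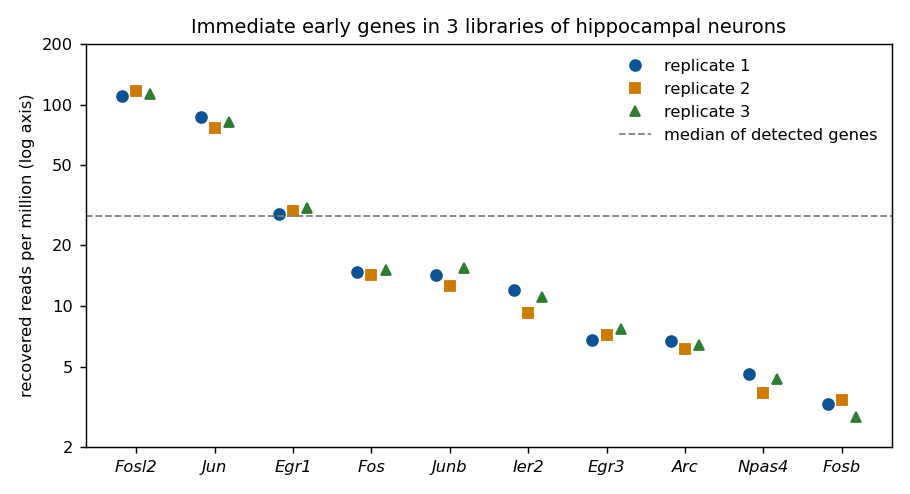
Recovered reads as CPM (log axis, not scaled by length) of each of the 10 genes in replicates 1, 2 and 3, with the median of detected genes, 27.8 CPM, as a dashed line. The 3 libraries lie close together for each gene, from 114 CPM on average for Fosl2 to 3.16 for Fosb.

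Start regions of 6 of the 10 genes are held in the RefSeq table of the build GRCm38.p6, as windows of 250 bases before to 50 bases after the RefSeq start, which can differ from the gene ends given further on. The windows of the highest pair, Jun and Fosl2, are printed with those of Fos, the gene after which the family is named, and Npas4, which lay among the lowest. Each is written 5′ to 3′ on the gene's own strand, and capitals mark TGACATCA in Jun, a match to GCGNGGGCG in Fosl2, and TGACG (or CGTCA on the other strand) and TATAA in Fos and Npas4.
Jun (chr4:95052173-95052472, minus strand): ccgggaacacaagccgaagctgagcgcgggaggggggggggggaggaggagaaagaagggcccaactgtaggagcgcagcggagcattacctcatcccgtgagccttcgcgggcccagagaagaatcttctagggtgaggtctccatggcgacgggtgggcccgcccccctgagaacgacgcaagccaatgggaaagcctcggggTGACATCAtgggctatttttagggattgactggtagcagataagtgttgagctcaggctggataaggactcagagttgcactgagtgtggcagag
Fosl2 (chr5:32136222-32136521, plus strand): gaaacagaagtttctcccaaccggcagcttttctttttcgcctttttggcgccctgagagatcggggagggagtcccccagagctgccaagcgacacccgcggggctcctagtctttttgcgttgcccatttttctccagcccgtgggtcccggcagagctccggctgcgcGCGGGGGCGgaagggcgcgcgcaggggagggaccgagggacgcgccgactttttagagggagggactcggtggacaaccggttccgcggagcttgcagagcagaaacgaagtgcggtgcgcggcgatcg
Fos (chr12:85473640-85473939, plus strand): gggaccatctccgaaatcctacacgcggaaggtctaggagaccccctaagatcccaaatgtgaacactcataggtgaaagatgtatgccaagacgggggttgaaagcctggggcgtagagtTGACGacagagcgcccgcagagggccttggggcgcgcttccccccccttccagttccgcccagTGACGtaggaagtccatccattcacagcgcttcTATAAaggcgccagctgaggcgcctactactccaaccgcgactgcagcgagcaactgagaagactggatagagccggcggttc
Npas4 (chr19:4989922-4990221, minus strand): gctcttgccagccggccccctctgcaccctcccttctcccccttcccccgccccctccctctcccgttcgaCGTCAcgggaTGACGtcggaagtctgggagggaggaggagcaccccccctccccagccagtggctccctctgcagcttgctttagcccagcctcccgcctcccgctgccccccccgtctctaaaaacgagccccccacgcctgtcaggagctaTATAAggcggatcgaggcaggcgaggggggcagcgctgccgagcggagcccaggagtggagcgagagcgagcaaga

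The letters TGACG on either strand, the opening letters of the cyclic AMP response element TGACGTCA that CREB binds, occurred in 4 of 6 windows, those of Fos, Fosb, Junb and Npas4. They occurred in 20.8% of all 32851 windows and in 30.5% of the windows of detected genes. The Fos window held them at -129 and -66 and the Npas4 window at -179 and -169, counted from the start as +1 with the 5′ end of the match on the printed strand. The whole element TGACGTCA was in none of the 6 windows, in 1.79% of all and in 3.04% of those of detected genes. TGACGTC, which is 1 base shorter, was in the Npas4 window alone, at -181 (as GACGTCA, on the other strand) and -169. It occurred in 3.2% of all windows and in 5.35% of those of detected genes. TATAA was found in 3 windows, against 24.9% of all windows and 13.2% of those of detected genes. It began at -33 in Fos and -26 in Npas4, but at +1, the start itself, in Junb. Jun held TGACATCA, a variant AP-1 element, at -45 (3.62% of all windows and 1.83% of those of detected genes). Fosl2 and Fosb held GCGNGGGCG, the letters bound by Egr proteins (5.55% of all windows and 10.8% of those of detected genes), which overlap the GC box GGGCGG in both genes. The GC box, not marked on its own, was in 5 of 6 windows, against 35.7% of all and 62.5% of those of detected genes. Neither TGANTCA, the usual AP-1 element, nor the CArG box of serum response factor was present in the 6 windows. They occurred in 7.81% and 1.63% of all windows and in 4.70% and 1.37% of those of detected genes. Sequence outside the windows was not searched. Both strands were searched, and the matches describe letters in a short window only.

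Fosl2, which encodes the Fos-related protein Fra-2, had the most reads, with 2077, 2184 and 2144 in replicates 1, 2 and 3. Its deposited log2 values were 11.04, 11.08 and 11.06, and its level was 114 ± 3.15 CPM. Fos, the prototype of the family, had 276, 267 and 284 reads and a level of 14.7 ± 0.374 CPM. Fosb, whose splice form ΔFosB is a stable protein that builds up with repeated activity, had 61, 64 and 53 reads and 3.16 ± 0.319 CPM. The libraries were close for each of the 3 genes. Per kilobase of annotated exon, Fosl2 lay at 11.7 ± 0.326, Fos at 6.24 ± 0.159 and Fosb at 0.506 ± 0.0511 CPM. The level of Fosl2 exceeded that of 66.7% of detected protein-coding genes on this scale.

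Jun, the main partner of Fos in AP-1, had 1639, 1427 and 1555 reads, deposited log2 values of 10.62, 10.55 and 10.59, and a level of 82.0 ± 5.46 CPM. Junb, a relative that is itself an early response gene, had 267, 234 and 292 reads and 14.1 ± 1.47 CPM. Replicate 2 was the lowest for both. Per kilobase Jun was the highest of the 10 genes at 25.7 ± 1.71 CPM, and Junb lay at 6.11 ± 0.641 CPM.

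Egr1, a zinc finger factor long used as a marker of active neurons, had 540, 557 and 580 reads and 29.8 ± 0.980 CPM. Egr3, which is induced after it, had 127, 134 and 146 reads and 7.22 ± 0.486 CPM. Both were lowest in replicate 1 and highest in replicate 3. Per kilobase they lay at 6.64 ± 0.219 and 1.64 ± 0.110 CPM, a log2 ratio of Egr1 over Egr3 of 1.74, with an SD of 0.03 in recovered reads.

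Arc had 126, 114 and 121 reads and 6.41 ± 0.304 CPM. Npas4 had 86, 69 and 82 reads and 4.20 ± 0.459 CPM. These 2 genes, the most closely tied to synaptic activity in neurons, were among the 4 lowest of the 10 per kilobase, where Arc lay at 2.10 ± 0.0994 and Npas4 at 1.02 ± 0.111 CPM. Ier2, a nuclear protein of the early growth factor response, had 225, 173 and 209 reads and 10.8 ± 1.38 CPM. Its coefficient of variation between libraries was 12.9%, the highest of the 10, with replicate 2 the lowest. Per kilobase it lay at 7.08 ± 0.910 CPM.

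Length scaling set part of this order. Per kilobase of annotated exon the genes ran from Jun through Fosl2, Ier2, Egr1, Fos, Junb, Arc, Egr3 and Npas4 to Fosb. All annotated exons of Fosl2 sum to 9680 bases and those of Fosb to 6243, whereas their transcripts with the longest coding sequence have 6537 and 3782 bases. On the transcript length Jun (25.7 CPM per kilobase) and Fosl2 (17.4) were again the highest, and Npas4 (1.16) and Fosb (0.836) the lowest. The 4 genes in the middle, Junb, Ier2, Fos and Egr1, changed order and spanned 6.64 to 7.78.

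**Figure D2:**
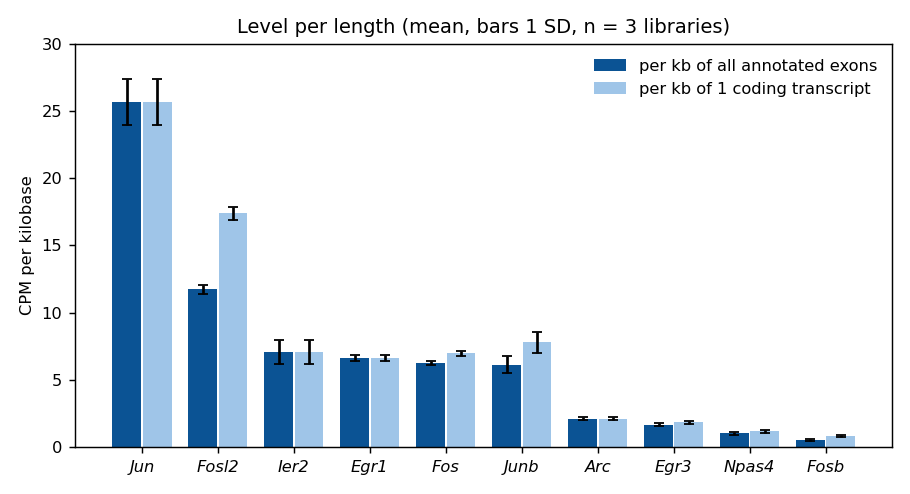
CPM per kilobase of each gene as mean with bars of 1 SD (n = 3 libraries), scaled by all annotated exons (dark) or by the transcript with the longest coding sequence (light). Jun and Fosl2 stand highest on both scales, and Ier2, Egr1, Fos and Junb stand at a like height, between 6.11 and 7.78.

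The log2 ratio per kilobase was computed within each library for all 45 pairs of the 10 genes, with 0.5 CPM per kilobase added. In recovered reads 43 pairs had the same sign in each library, and 39 had a mean ratio above 2 SD. The 6 pairs within 2 SD were the pairs among Ier2, Egr1, Fos and Junb, so these 4 could not be ordered per kilobase of exon in these libraries. Ier2 over Egr1 was 0.09 in deposited values, with an SD of 0.20 in recovered reads. Jun over Fosl2 was 1.10 with an SD of 0.13, and Fosl2 over Ier2, the step below it, was 0.69 with an SD of 0.22. Among the lower genes, Junb over Arc was 1.35 (SD 0.12), Arc over Egr3 0.28 (SD 0.11), Egr3 over Npas4 0.50 (SD 0.14) and Npas4 over Fosb 0.59 (SD 0.16), each SD in recovered reads. The added value sets the size of these ratios but not their sign. Npas4 over Fosb was 1.01 with nothing added and 0.13 with 5 added, and Egr3 over Npas4 was 0.69 and 0.14. Flipping signs over libraries, an exact permutation test (two-sided) on deposited values gave p = 0.25 for all 45 pairs. The adjusted p was also 0.25. This p was fixed by the signs, since in deposited values each pair had the same sign in each library. No smaller p can be had from 3 libraries, and none could pass 0.05.

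Jun proteins bind DNA as pairs with each other or with Fos proteins, whereas Fos proteins need a partner of another family. This gives the balance of the 2 families its interest. Jun and Junb summed per kilobase exceeded Fos, Fosb and Fosl2 by 0.77 on the log2 scale, 1.70-fold, with values of 0.80, 0.73 and 0.77 in replicates 1, 2 and 3. In recovered reads the values were 0.86, 0.64 and 0.79, an SD of 0.12. The direction was the same in each library, with an exact permutation p of 0.25. It depended on length, since without length scaling the ratio was −0.45. Jund and Fosl1 complete the 2 families. With them included the ratio was 1.91.

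Within the Fos family, Fosl2 made up 57.1% ± 0.903, Fos 30.4% ± 1.21, Fosl1 10.1% ± 1.45 and Fosb 2.46% ± 0.272 of the summed level per kilobase of exon (SD, n = 3). Within the Jun family, Jund, which is less dependent on stimulation, made up 59.5% ± 1.86, Jun 32.8% ± 1.67 and Junb 7.78% ± 0.561. Egr1 made up 59.6% ± 1.33 of the Egr family, Egr4 17.2% ± 2.99, Egr3 14.7% ± 0.287 and Egr2 8.53% ± 1.73. On this scale 1 gene in each family held more than the others together. In the Jun family this rested on length scaling, since unscaled Jund had 78.3 ± 11.1 CPM and Jun 82.0 ± 5.46.

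**Figure D3:**
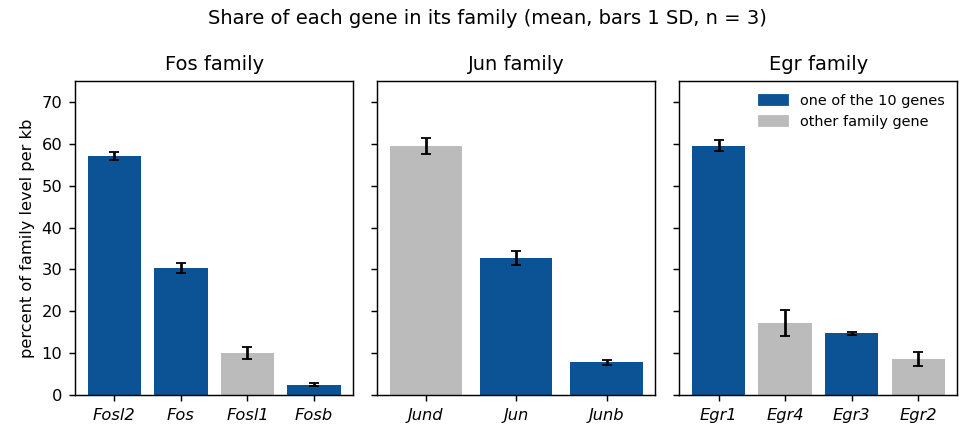
Share of each gene in the summed level per kilobase of exon of its family, as mean with bars of 1 SD (n = 3 libraries); dark bars are among the 10 genes. Fosl2 (57.1%), Jund (59.5%) and Egr1 (59.6%) are the tallest bars of the 3 panels.

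The replicates were compared to see whether any of the 10 genes differed between neurons given the same medium. Jun was the one gene of 10 that differed by more than counting error (adjusted p = 0.0304, Pearson chi-square test with Benjamini-Hochberg adjustment over 15131 genes), against 8.62% of all genes tested, a share near that background. Jun was 0.15 lower on the log2 scale in replicate 2 than in replicates 1 and 3. It did not differ by more than the dispersion trend over all genes (adjusted p = 0.896), a test passed by 0.317% of genes and by 0 of the 10, of which 0 had an unadjusted p under 0.05. The counting-error call was lost without replicate 1 (adjusted p = 0.158), without replicate 2 (0.607) and after library factors were fitted in bins of GC content and length (0.219). It held without replicate 3 (0.00824) and with other library factors or other minimum reads (0.0251 to 0.0444). Ier2 had an unadjusted p of 0.0417 and an adjusted p of 0.218. The other 8 genes had unadjusted p values of 0.0535 (Junb) or more.

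After scaling, 6 of the 10 genes, Fos, Jun, Junb, Arc, Npas4 and Ier2, were lowest in replicate 2, as were 37.0% of all genes tested. Relative to replicates 1 and 3, Ier2 lay at −0.31, Npas4 at −0.27, Junb at −0.24, Jun at −0.15, Arc at −0.10 and Fos at −0.05 on the log2 scale in replicate 2. Fosb lay at 0.19, Fosl2 at 0.07, Egr1 at 0.009 and Egr3 at −0.007. Over all genes tested this difference moved with base composition. Its median was −0.08 in genes with 56.2% to 72.9% GC in their transcript and 0.06 in those with 31.9% to 44.5%, the highest and the lowest of 5 equal groups. In the highest group lay Junb (62.6% GC), Ier2 (60.9%), Arc (59.0%), Npas4 (57.4%) and Egr1 (57.3%). With factors fitted in GC and length bins Junb lay at −0.14, Ier2 at −0.21, Arc at 0.01, Npas4 at −0.21 and Egr1 at 0.07. The part of base composition in the difference was not tested.

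**Figure D4:**
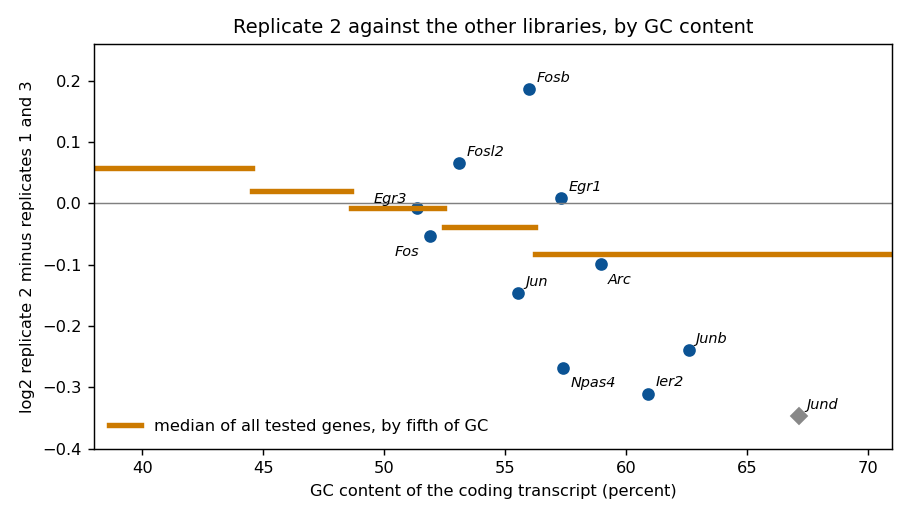
Log2 level in replicate 2 minus the mean of replicates 1 and 3 (vertical axis) against GC content of the coding transcript in percent (horizontal axis), for the 10 genes (circles) and Jund (diamond), with medians of all tested genes in 5 groups of GC content as bars. Jund, Ier2, Npas4 and Junb lie lowest, and the bars descend from 0.06 to −0.08.

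Jund showed the same direction more strongly than any of the 10 genes. It had 1647, 1235 and 1531 reads, an adjusted p of 9e-11 against counting error and of 0.00345 against the dispersion trend (chi-square tests as above). With GC and length bins the adjusted values were 6.95e-05 and 0.0496. Its transcript holds 67.1% GC.

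On the genome (GRCm38, GENCODE M21) the 10 genes are compact. Their spans had a median of 4698.5 bases, against 26685 for detected protein-coding genes, and their transcripts had a median of 2.5 exons, against 9. The coding transcripts of Jun, Junb and Ier2 have a single exon, as in 2.67% of detected protein-coding genes, and Junb has a further noncoding transcript with other exons. The transcripts were GC-rich, with a median of 56.6% against 50.4%. ATTTA, the pentamer of AU-rich elements that mark transcripts for rapid decay, occurred in the 3′ untranslated region of 8 genes, Arc and Ier2 being the exceptions, and in 66.8% of detected protein-coding genes. Per kilobase of that region Fos had 4.91, Junb 4.12 and Jun 3.24 copies, and the median was 1.68 for the 10 genes and 1.29 for detected protein-coding genes.

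Fos lies on chromosome 12 (85473890 to 85477273), Fosb on chromosome 7 (19302696 to 19310051), Fosl2 on chromosome 5 (32135801 to 32157842), Jun on chromosome 4 (95049034 to 95052222), Egr1 on chromosome 18 (34859823 to 34864984), Egr3 on chromosome 14 (70077203 to 70082614), Arc on chromosome 15 (74669083 to 74672570) and Npas4 on chromosome 19 (4984355 to 4990316). Junb (84974484 to 84978718) and Ier2 (84661331 to 84662852) share chromosome 8 and lie 312 kb apart. Jun and Junb are each overlapped by a gene on the opposite strand. No source used here says whether strand was kept in counting, so both values are uncertain to that extent. Jun shares 232 exon bases with Junos, an antisense RNA that had 30 reads in all. Junb shares 173 exon bases with Prdx2, a peroxiredoxin gene at 252 ± 9.79 CPM. The stretch shared with Prdx2 belongs to the noncoding transcript of Junb. Without strand, reads of either gene in a shared stretch cannot be told apart.

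Genes next to the 10 had no common level. Egr1 lies between Reep2 (109 ± 4.62 CPM) and Etf1 (202 ± 5.85), and Egr3 between Pebp4, with 13 reads in all, and Bin3 (12.9 ± 0.223). Arc lies between Mroh4, with 0 reads (3 reads, or 0.160 CPM, is the limit that a count of 0 allows), and Jrk (7.63 ± 0.506), and Ier2 between Cacna1a (67.2 ± 6.24) and Gm26664, with 9 reads. Beside Junb lie Rnaseh2a (12.4 ± 1.06) and Hook2 (14.4 ± 1.04), and beside Npas4 lie Mrpl11 (43.2 ± 2.86) and AC124502.5. The nearest genes of Jun, Gm12703 and n-R5s189, of Fosl2, Gm10463 and Gm26335, and Gm26802 beside Fosb had at most 2 reads each. Those of Fos are Gm40477 and Gm32296, and the other of Fosb is D830036C21Rik.

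Other immediate early genes spanned a wider range, from 0.112 to 46.9 CPM per kilobase. Of 39 listed, 38 were detected, with a median of 5.47 CPM per kilobase against 6.18 for the 10 genes and 6.65 for detected protein-coding genes. Highest per kilobase were Jund (46.9 ± 6.63), Rheb (36.1 ± 0.453), a small GTPase that activates mTOR, and Plk2 (29.7 ± 0.744), a kinase of synaptic homeostasis. Ptgs2, which encodes the inducible cyclooxygenase, was the one below 1 CPM, with 29 reads in all. The other Egr genes were low, Egr2 at 0.946 ± 0.163 and Egr4 at 1.92 ± 0.422 CPM per kilobase, and so was Fosl1 at 2.08 ± 0.354.

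Late response genes, which follow the first wave and include genes of secreted and synaptic proteins, were detected without exception (16 of 16). Their median was 3.96 CPM per kilobase. The secretogranin gene Scg2 (36.5 ± 1.78), the neurofilament gene Nefl (28.4 ± 1.92) and Vgf (25.8 ± 2.36), a neuropeptide precursor, were highest. Of the 29 upstream regulators all were detected, with a median of 8.91 CPM per kilobase, and Ppp3r1, the regulatory subunit of calcineurin, led at 115 ± 2.52, and the MAP kinase Mapk3 (67.8 ± 3.16) was also among the 3 highest. Srf, the serum response factor, lay at 15.6 ± 0.175 and Creb1 at 5.81 ± 0.214.

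Partners and repressors of the encoded proteins were mostly detected, 18 of 22, with a median of 4.41 CPM per kilobase. The highest were Arnt2 (57.2 ± 0.876), the neuronal partner of Npas4, Jund, and the small Maf gene Mafg (22.0 ± 0.409). Jdp2 (15.5 ± 0.336) and Atf3 (8.01 ± 0.433) encode repressors that enter AP-1 dimers, and Nab1 (9.28 ± 0.314) and Nab2 (5.61 ± 0.241) encode corepressors of Egr proteins. Below 1 CPM lay Batf, Batf3 and Nfatc4, with 9, 28 and 47 reads in all, and Batf2, with none. Of 12 genes that act on the stability of early transcripts all were detected, with a median of 17.6 CPM per kilobase. Elavl3 (97.5 ± 1.46), Elavl4 (37.5 ± 0.794) and the exon junction factor Eif4a3 (27.6 ± 1.71) were highest. Acute stress genes had the lowest median of these lists, 2.22 CPM per kilobase, with 10 of 12 detected. Hmox1 (45.3 ± 1.61), Ddit3 (44.0 ± 2.67) and Dnajb1 (16.9 ± 0.647) led, and Hspb1 and Il6 lay below 1 CPM with 19 and 3 reads in all.

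**Figure D5:**
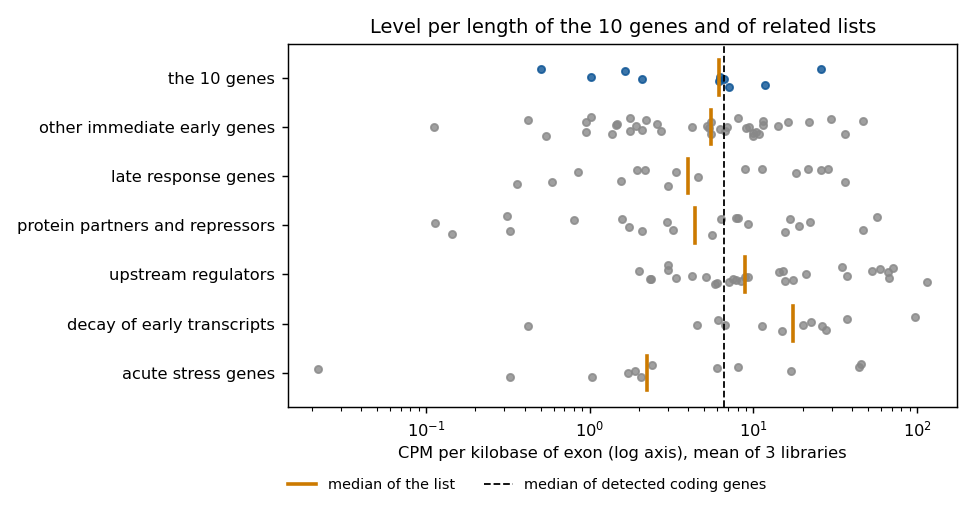
CPM per kilobase of exon (log axis, mean of 3 libraries) of each of the 10 genes (dark points) and of the genes of 6 related lists (grey points), with the median of each list and a dashed line for detected protein-coding genes. The median of the 10 genes (6.18) lies close to the dashed line (6.65) on this length scale; Batf2, with no reads, is not drawn.

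Early genes can be transcribed by many cell types, and in bulk RNA fewer cells of a type and less RNA per cell cannot be told apart. Neuronal markers of the labelled cell type were detected, 7 of 7, with 0.610% to 0.613% of reads in the 3 libraries. Astrocyte markers, 7 of 7, held 0.183% to 0.186%, oligodendrocyte lineage markers, 6 of 6, 0.0280% to 0.0297%, and excitatory and inhibitory markers, 4 of 4 each, 0.0689% to 0.0702% and 0.0834% to 0.0855%. Microglial markers, 1 of 7, held at most 0.000598% of reads, endothelial markers, 1 of 5, at most 0.000527%, with Cldn5 at 0 reads, and mural and fibroblast markers, 3 of 5, at most 0.00563%. Which of these cells the reads of the 10 genes came from was not tested.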

How the data were processed

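Total RNA of 3 samples in 1 group was sequenced on a DNBSEQ platform, per the labels' protocols. The deposited tables, 1 for each sample, hold log2 expression by gene and have no header. FastQC, HISAT2, featureCounts and DESeq2 on GRCm38 are named in the submitters' processing notes; their versions and settings are not stated there.

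The values have the form of a regularized log. Whole reads were recovered by inverting a ridge-penalised negative binomial fit with 6 fitted parameters: 99.9% of 67797 recovered values lay within 0.1 of whole reads (20% by chance), refitted values lay within 0.001 of the deposited ones for 100% of genes, and the 30 values of the 10 genes came within 0.00913 of a whole number. Detection, ratios between genes and their tests rest on the deposited values. The chi-square tests need reads and use the recovered ones. Levels were planned on deposited values with recovered reads as the alternative; CPM is printed from recovered reads, because the deposited values shrink the spread between libraries. Python 3.11.15, numpy 2.4.6 and scipy 1.17.1 were used.

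Genes were matched by symbol or synonym to GENCODE M21 (45296 and 619 rows). The chi-square test used median-of-ratios size factors and the 15131 genes that averaged at least 10 reads. The dispersion trend was set so that the median statistic in bins of abundance equals that of chi-square. Both tests were run on simulated data, the one against counting error only on data without change. Changes simulated for the trend test were larger than any range of the 10 genes between libraries, at most 1.29-fold in CPM (Ier2). How often it finds changes as small as theirs was not tested. Ratios added 0.5 to CPM per kilobase. Limits for a count of 0 cover counting error only. Named genes were the 10 genes, the 3 highest of each related list and its members below 1 CPM, their named partners and their neighbours on the genome; marker lists are given as shares. One result that this rule names is not reported here. No gene was named for a like pattern, because 1 group gives no pattern of conditions. Members and lists were chosen with earlier results of these data known.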

Additional observations from a re-analysis of the deposited data

How the results depend on the processing

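Bins of GC content and length were added after seeing the data. Of 371 alternative values of a ratio, 10 changed sign, and the other 361 kept their sign but not always their size. Many of the 361 could not have changed sign. In deposited values all 45 pairs and the family ratio had the same sign in each library. Another added value or a replicate left out cannot reverse such a ratio, so those settings do not test its sign. Jun family over Fos family was 1.91 with Jund and Fosl1 and 0.40 with the length of 1 transcript, and Fosl2 over Fosb, 3.61, was 1.60 with 5 added. Of 38 other early genes detected, 26 passed 5 CPM. Without length scaling the reversals were Jun family over Fos family (−0.45), Jun over Fosl2 (−0.47), Ier2 over Fos (−0.43), Ier2 over Junb (−0.37), Ier2 over Egr1 (−1.43) and Arc over Egr3 (−0.16). With the length of 1 transcript they were Fos over Junb (−0.15), Egr1 over Fos (−0.064), Egr1 over Junb (−0.21) and Ier2 over Junb (−0.13). The change of length alone moved them. All 10 genes were detected under each alternative except at 5 CPM, where 8 were. Without mitochondrially encoded genes in the total the share of the 10 genes was 0.0310%, against 0.0286%, by construction. The count of genes beyond counting error was 334 to 1187 with 1 replicate left out (334 without replicate 2, 835 without replicate 3) and 719 with GC and length bins, against 1304. The count beyond the dispersion trend was 7 to 28 with 1 replicate left out (7 without replicate 1), against 48. Fits with 1 replicate left out test fewer libraries. With GC and length bins the count beyond the trend rose to 71. The number of the 10 genes beyond counting error was 0 to 1 with 1 replicate left out and 0 with the bins, against 1. No paired analysis was possible because there is 1 group.

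Fosb, Npas4, Arc and Egr3 had 178 to 407 reads in all, a counting error of 8.59% (Egr3), 9.12% (Arc), 11.3% (Npas4) and 12.98% (Fosb) per library as coefficient of variation.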

Other observations

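Among orphan nuclear receptor genes of the early response, Nr4a3 lay at 10.4 ± 0.176, Nr4a2 at 9.87 ± 0.195 and Nr4a1 at 6.27 ± 0.266 CPM per kilobase of exon (SD, n = 3), beside 11.7 ± 0.326 for Fosl2 and 6.24 ± 0.159 for Fos.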
